A study of Mus musculus with 4 samples.

Results

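The Hox gene clusters were placed in the topologically associating domains (TADs) of AML12 cells, an immortalized mouse hepatocyte line, grown in 2D and in 3D. The members were 38 listed Hox genes of the 4 clusters, chosen by their names and placed by their positions in the mouse genome, of 21755 protein-coding genes on chromosomes 1 to 19 and X. Of these, 10 lie in HoxA on chromosome 6, 10 in HoxB on chromosome 11, 9 in HoxC on chromosome 15 and 9 in HoxD on chromosome 2. In situ Hi-C, which crosslinks chromatin, cuts it in the nucleus and sequences the ligated ends of DNA that lay close together, had been performed on 2 biological replicates of each culture. The 2D-cultured cells grew on dishes and the 3D-cultured cells were embedded in Matrigel, an extracellular matrix gel. The labels name no genetic modification of the line, and every sample had received 1 mM hydroxyurea, an inhibitor of DNA replication (24 h for the 2D cultures, 36 h for the 3D cultures), so that the duration of treatment and the growth dimension cannot be told apart. The replicates had been combined before domains were called, which leaves 1 list of TADs per culture, 4467 in 2D and 4355 in 3D. The difference between the lists therefore has no replicate check, and no p-value was computed. The lists hold positions in steps of 40 kb (1 bin) and carry no read counts, so the depth that supports a domain is not known, and 1 bin is the smallest displacement that could be seen. The lists hold no expression either, so the identity of the line was not checked against marker genes.

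Hox genes encode homeodomain transcription factors that specify position along the body axis of the embryo. They lie in clusters in which the order of the genes follows the order of their activity, from the genes with low numbers, active early and in anterior regions, to those with high numbers, active late and in posterior regions. Genes with the same number in different clusters, called paralogues, descend from 1 ancestral gene. Stretches with few genes beside some clusters, above all those beside HoxD, hold enhancers that act on the clusters over long distances in the embryo. A TAD is a stretch of chromosome whose positions contact each other more often than positions outside it, and a border is an end of such a domain. In the text a gene is placed by the start of its principal transcript, either end of a TAD is a border, and a border is called shared if it lies no more than 40 kb from a border of the other culture.

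All 38 members started inside a TAD in both cultures, beside 76.7% of all protein-coding genes in 2D and 83.5% in 3D. The members filled only 6 TADs in each list, so the genes of 1 TAD do not count as separate observations. Each of the 6 TADs had a counterpart in the other list, that is, a TAD with both ends within 40 kb of its own, as had 66.1% of all TADs in 2D and 67.8% in 3D. Counted by gene, the TADs of 38 of 38 members had a counterpart, against 51.3% of all protein-coding genes in 2D and 51.7% in 3D. The ends were identical for 3 of the 6 TADs, which held 19 of the 38 members (50.0%), beside 35.1% of all protein-coding genes. The HoxB and HoxD domains were the identical ones, and those of HoxA and HoxC differed between the cultures by 1 bin. The shares of all genes count those outside any TAD as having no counterpart, so part of each gap restates the share inside a TAD. TADs with identical ends held 7639 genes, and 16679 genes started inside a TAD in 2D and 18168 in 3D.

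**Figure D1:**
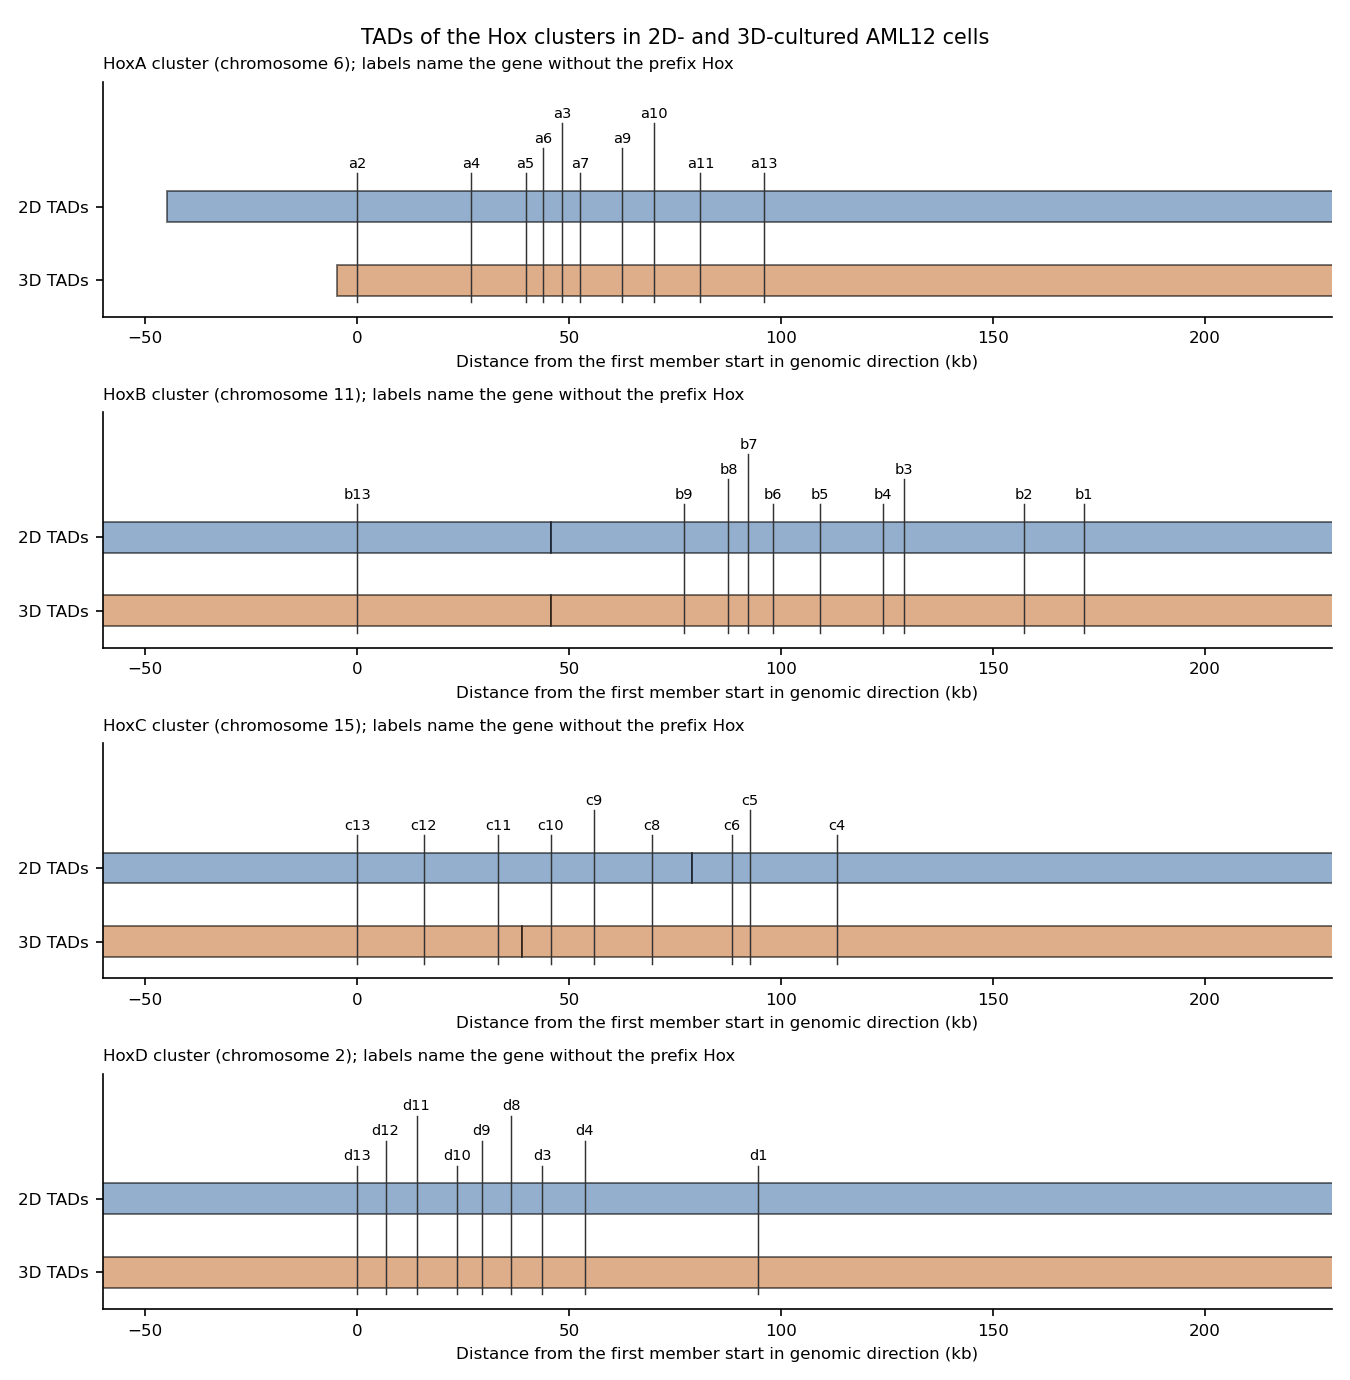
TADs over the 4 Hox clusters in 2D (blue) and 3D (orange), with the start of each member as a vertical line and the distance in kb from the first member start on the horizontal axis; bars that reach the edge of a panel continue beyond it. The listed members of HoxA and of HoxD lay in 1 TAD each, a border at the same position divided HoxB in both cultures, and the border that divided HoxC lay 40 kb apart in the 2 cultures.

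The listed members of HoxA spanned 98.5 kb from the end of Hoxa2, an early gene that patterns the hindbrain, to the start of Hoxa13, the last gene of the cluster, which acts in the distal limb. The genes lie on the minus strand, so the cluster runs from anterior to posterior genes along the chromosome. All 10 members lay in 1 TAD, at chr6:52120001-52520000 in 2D (400 kb) and chr6:52160001-52520000 in 3D (360 kb). The posterior border, at 52520000, was thus the same, and the anterior border lay 1 bin closer to the genes in 3D. Hoxa2 started 44.8 kb from the anterior border in 2D and 4.8 kb from it in 3D. Hoxa4 lay at 71.8 and 31.8 kb, Hoxa5 at 84.6 and 44.6 kb, and Hoxa6 at 88.7 and 48.7 kb in 2D and 3D. Every member of the cluster was 40 kb closer to its nearest border in 3D, since the anterior border was the nearest for each of them in both lists. Hoxa3, whose principal transcript starts between those of Hoxa6 and Hoxa7, lay at 93.1 kb in 2D and 53.1 kb in 3D. Hoxa7 was at 97.5 and 57.5 kb, Hoxa9, a gene also known from blood cell development, at 107.4 and 67.4 kb, and Hoxa10 at 114.9 and 74.9 kb. The posterior genes Hoxa11 (125.8 and 85.8 kb) and Hoxa13 (140.9 and 100.9 kb) were the farthest from a border.

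The TAD of HoxA reached 259.1 kb past Hoxa13 in both cultures and only 42.4 kb (2D) or 2.4 kb (3D) past Hoxa2. On the posterior side it took in Evx1, a homeobox gene linked to HoxA, which started 52.6 kb beyond Hoxa13, and the long non-coding RNA gene Hottip, 1.9 kb beyond it. Hibadh, a gene of valine breakdown, started 379.5 kb past the cluster and 0.4 kb from the border at 52640000 in both lists, outside any TAD. The anterior side held an interval that belonged to no TAD, from 52040000 to 52120000 in 2D and from 52000000 to 52160000 in 3D. The TAD of HoxA held 14 protein-coding starts in 2D, 4 of them not listed members. In 3D it held 13, 3 of them not listed members. The non-coding genes at the anterior end were placed as follows. Hotairm1, a non-coding RNA gene at the anterior end of HoxA, started 5.5 kb before Hoxa2 inside the TAD of the cluster in 2D, 36.9 kb from its border, and outside any TAD in 3D, 3.1 kb from the border. Halr1 lay in the unassigned interval in both cultures. Skap2, which encodes an adaptor protein, started 149.9 kb before the cluster, in the TAD that ended at 52040000 in 2D and in no TAD in 3D, where its start was 12.5 kb from the border. The other non-coding genes placed here, Hoxaas3, Hoxa11os and Mir196b, lay in the TAD of the members in both lists.

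HoxB spanned 173.9 kb on the plus strand, from the posterior gene Hoxb13 to the anterior gene Hoxb1, which acts in the hindbrain. A border at 96240000 in both lists separated Hoxb13 from the other 9 members. Hoxb13, known for its role in the prostate and the tail bud, lay in a TAD of 160 kb (chr11:96080001-96240000), together with Ttll6, a tubulin-modifying enzyme gene, and Calcoco2, which encodes an autophagy receptor. The other members lay in a TAD of 520 kb (chr11:96240001-96760000). The border fell in the widest gap between neighbouring members of any cluster, 77.1 kb between the starts of Hoxb13 and Hoxb9, and was 45.7 kb from Hoxb13 and 31.5 kb from Hoxb9. From there the distances to this border rose along the cluster and were equal in both lists. They were 41.9 kb for Hoxb8, 46.6 kb for Hoxb7, 52.5 kb for Hoxb6 and 63.5 kb for Hoxb5. Hoxb4, a regulator of blood stem cells, lay at 78.3 kb, Hoxb3 at 83.3 kb, Hoxb2 at 111.6 kb and Hoxb1 at 125.8 kb. Hoxb9 was the only member of HoxB within 40 kb of a border in either culture.

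The TAD of the 9 HoxB members continued 391.7 kb beyond Hoxb1 and held 1 further protein-coding start, that of Skap1, an adaptor of T cell signalling whose gene body fills most of that distance. Its far border, at 96760000, was also the same in both lists, and Snx11 (17.5 kb from it) and Cbx1, which encodes a heterochromatin protein (29.2 kb), lay in the next TAD. On the other side Atp5g1, a gene of the mitochondrial ATP synthase, started 4.3 kb before the border at 96080000, in the neighbouring TAD. No placed gene of this cluster changed sides between the cultures.

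HoxC spanned 115.8 kb on the plus strand, from Hoxc13, which acts in hair and nail, to Hoxc4. Both lists gave the same outer ends for the pair of TADs that held it, 102760000 and 103160000, and 1 border between them that lay at 103000000 in 2D and at 102960000 in 3D. In 2D the TAD of 240 kb (chr15:102760001-103000000) held 6 members, Hoxc13, Hoxc12, Hoxc11, Hoxc10, Hoxc9 and Hoxc8, and the TAD of 160 kb (chr15:103000001-103160000) held Hoxc6, Hoxc5 and Hoxc4. In 3D both TADs measured 200 kb. The first (chr15:102760001-102960000) held only Hoxc13, Hoxc12 and Hoxc11, and the second (chr15:102960001-103160000) held the other 6. Hoxc10, Hoxc9 and Hoxc8, the middle genes of the cluster, were thus grouped with the posterior genes in 2D and with the anterior genes in 3D. This displacement is 1 bin, the resolution of the lists, and the border is shared by the definition used here.

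The distances of the HoxC members moved in both directions. Hoxc13 lay 78.9 kb from the nearest border in 2D and 38.9 kb in 3D, Hoxc12 63.2 and 23.2 kb, and Hoxc11 45.6 and 5.6 kb. Hoxc10 moved from 33.2 to 6.8 kb and Hoxc9 from 23.0 to 17.0 kb, on opposite sides of the border in the 2 cultures. Hoxc8 was the gene next to the border in 2D, at 9.4 kb, and 30.6 kb from it in 3D. The 3 anterior members went the other way, Hoxc6 from 9.6 to 49.6 kb, Hoxc5 from 13.8 to 53.8 kb and Hoxc4 from 34.4 to 74.4 kb. In all, 15 of the 38 members were closer to a border in 3D, all of them in HoxA and HoxC, 4 were farther away, all in HoxC, and 19 were at the same distance. Placed by the 5′ end of its gene record, Hoxc5 turned, from 32.6 kb in 2D to 7.4 kb in 3D, which made 16 members closer and 3 farther. Placed by the start codon, Hoxc9 turned, from 18.3 to 21.7 kb, which made 14 closer and 5 farther. The distance was the same in both lists for 62.7% of all protein-coding genes.

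The side on which Hoxc6 and Hoxc5 fall in 2D depends on the transcript that stands for them, because their gene records begin upstream, 11.3 and 46.4 kb before the principal start. When genes were placed by the 5′ end of the record, the 2D border lay between Hoxc6 and Hoxc4, with Hoxc6 and Hoxc5 on the side of the posterior genes, while the 3D border still lay between Hoxc11 and Hoxc10. The non-coding RNA gene Hotair, transcribed from the opposite strand between Hoxc12 and Hoxc11, lay with 6 members in 2D and with 3 in 3D. Around the cluster, Calcoco1 started in an unassigned interval 198.9 kb before Hoxc13, and Smug1, a DNA repair gene, started 130.2 kb after Hoxc4 and 7.1 kb past the border at 103160000. Cbx5, a paralogue of Cbx1, and Hnrnpa1, which encodes a splicing factor, lay in that next TAD in both lists. No protein-coding gene other than the members started in the pair of TADs that held HoxC.

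**Figure D2:**
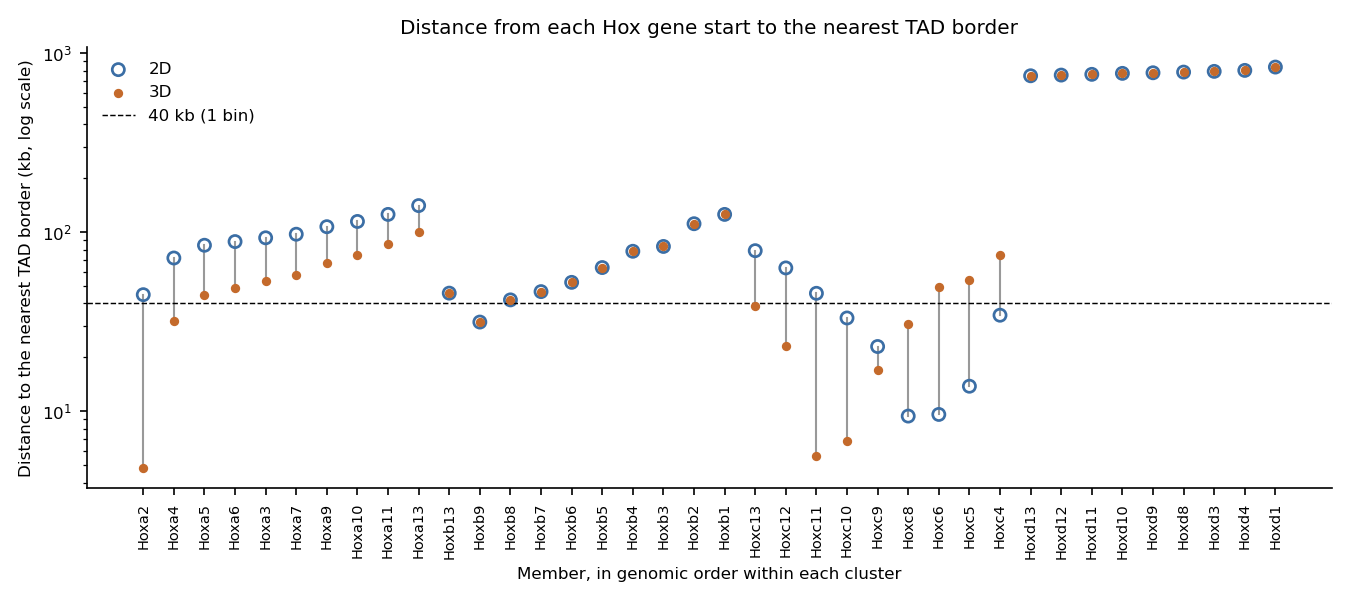
Distance from the start of each of the 38 members to the nearest TAD border, on a log scale in kb, in 2D (open blue circles) and 3D (filled orange circles), with a dashed line at 40 kb. Circles coincide in HoxB and HoxD, all 10 HoxA genes lie 40 kb lower in 3D, and the HoxC genes cross.

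HoxD spanned 96.8 kb on the plus strand, from Hoxd13, which shapes the digits, to Hoxd1. In limb buds the cluster is known to lie between a regulatory domain on either side. In both lists of AML12 cells the whole cluster lay in 1 TAD of 1680 kb, at chr2:73920001-75600000, with identical ends. The lists hold domains called at 1 setting (gamma 0.8), and contacts inside the TAD were not examined. Whether HoxD is divided between 2 domains in these cells was therefore not tested. The cluster took up 5.76% of the TAD, with 748.3 kb of it before Hoxd13 and 834.9 kb after Hoxd1. The members lay in the interior, at 748.3 kb from the nearest border for Hoxd13, 755.0 kb for Hoxd12, 762.3 kb for Hoxd11 and 771.9 kb for Hoxd10. Hoxd9 followed at 777.7 kb, Hoxd8 at 784.6 kb, Hoxd3 at 791.9 kb and Hoxd4 at 802.0 kb. These 8 genes were nearest to the border at 73920000, on the side of Hoxd13. Hoxd1 was nearest to the other, at 837.0 kb, and was the member farthest from any border. Only 4.50% of all protein-coding genes in 2D and 4.94% in 3D lay as far from a border as Hoxd13 or farther.

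The same TAD held Evx2, the homeobox gene beside Hoxd13 (8.9 kb before the cluster), Lnpk, which encodes a protein of the endoplasmic reticulum (89.4 kb before), and Mtx2, a gene of mitochondrial import (60.7 kb after). It held 13 protein-coding starts, or 7.74 per Mb, beside 7.29 per Mb over all TADs in 2D and 7.70 in 3D. The TAD of HoxA held 35.0 per Mb in 2D and 36.1 in 3D, that of 9 HoxB members 19.2 and those of HoxC at least 15.0. In each of these TADs most of the protein-coding starts were those of the members themselves. Outside the HoxD TAD, Atp5g3 started 8.7 kb before the border at 73920000, in a TAD with Atf2, in both lists. On the far side Hnrnpa3 and Nfe2l2, a regulator of the response to oxidative stress, shared 1 TAD of 240 kb that abutted the HoxD TAD in 3D, whereas in 2D an interval of 80 kb without a TAD followed the border and held the start of Hnrnpa3.

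The TADs that held members measured 160 to 1680 kb, and the lists held TADs of 120 to 5720 kb in 2D and 120 to 5960 kb in 3D. In 2D, 7.23% of all TADs were longer than that of HoxD, 22.4% were longer than the larger HoxB TAD, 28.4% were longer than that of HoxA, and 62.1% were longer than the TAD of Hoxb13 and the smaller HoxC TAD. In 3D, 7.32% were longer than the HoxD TAD, 33.7% longer than that of HoxA and 59.1% longer than either HoxC TAD. Among TADs at least as long as that of HoxD, 37.6% of those in 2D and 37.8% of those in 3D had identical ends in the other list, as the HoxD TAD had.

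**Figure D3:**
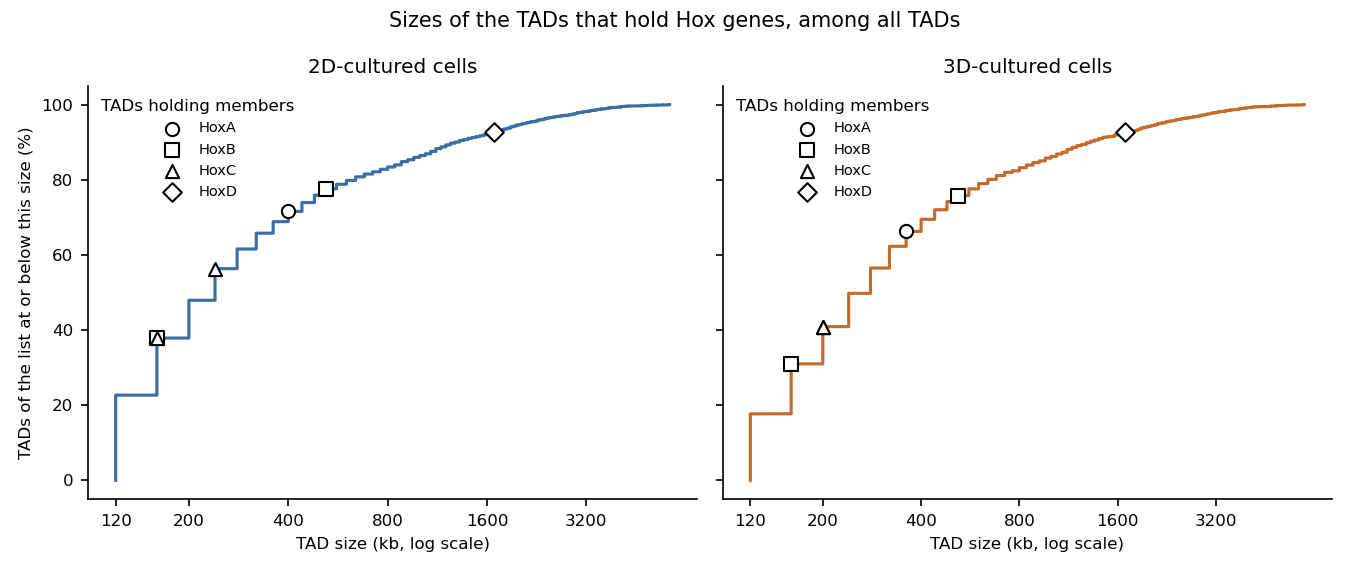
Cumulative share (%) of TADs by size (kb, log scale) in the 2D list (left) and the 3D list (right), with markers for the TADs that hold members of each cluster. The HoxD TAD of 1680 kb was the longest that held members in both lists, and the TAD of Hoxb13, at 160 kb, had 62.1% (2D) and 69.0% (3D) of all TADs above it.

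Compared across paralogues, the same number did not stand for the same place in a TAD. The 4 genes of group 13 lay 140.9 kb (Hoxa13), 45.7 kb (Hoxb13), 78.9 kb (Hoxc13) and 748.3 kb (Hoxd13) from a border in 2D. Hoxb13 had a TAD without another member, Hoxc13 shared its TAD with the genes of high number, and Hoxa13 and Hoxd13 shared theirs with all listed members of their cluster. In group 9, Hoxb9 lay with the anterior genes in both lists, while Hoxc9 lay with the posterior genes in 2D and with the anterior genes in 3D. In group 4, the distances were 71.8 kb for Hoxa4, 78.3 kb for Hoxb4, 34.4 kb for Hoxc4 and 802.0 kb for Hoxd4 in 2D, and 31.8, 78.3, 74.4 and 802.0 kb in 3D. The neighbours that were copied together with the clusters differed too. Skap1 shared a TAD with HoxB members and Skap2 shared none with HoxA members, and Calcoco2 lay with Hoxb13 whereas Calcoco1 lay in no TAD. Evx1 and Evx2 both lay in the TAD of their cluster. Atp5g1, Atp5g2 and Atp5g3 started 4.3, 8.9 and 8.7 kb from a border, outside the TADs of the members. Starts within 40 kb of a border are common, at 40.9% of all protein-coding genes in 2D and 38.6% in 3D.

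Few neighbouring members were separated by a border. The 38 members form 34 neighbouring pairs, and 2 of them were separated in each culture, Hoxb13 and Hoxb9 together with Hoxc8 and Hoxc6 in 2D, and Hoxb13 and Hoxb9 together with Hoxc11 and Hoxc10 in 3D. Among all consecutive protein-coding starts no more than 77.1 kb apart, 15.0% of the pairs were separated in 2D and 14.2% in 3D. Members lie close together, with a median spacing of 10.3 kb against 23.9 kb for those pairs, and 23 of the 34 pairs start in the same bin, where no border could be seen. Of the 11 pairs that start in different bins, 18.2% were separated in each culture, beside 25.7% (2D) and 24.3% (3D) of such pairs in all. The separation differed between the lists for 2 of the 34 pairs, beside 8.06% of all pairs. Both are in HoxC and follow from the 1 border that lay 1 bin apart. Pairs within 1 bin cannot differ. Among pairs in different bins the separation differed for 2 of 11 member pairs and for 1205 of 8735 pairs in all.

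The share of members near a border was below that of all genes in both lists. In 2D, 7 of the 38 members (18.4%) started within 40 kb of one, beside 40.9% of all protein-coding genes, and in 3D 9 members (23.7%) beside 38.6%. In 2D these were Hoxb9 and the 6 HoxC genes from Hoxc10 to Hoxc4. In 3D they were Hoxa2, Hoxa4, Hoxb9 and the 6 HoxC genes from Hoxc13 to Hoxc8. Placed by the 5′ end of the gene record, 7 members in 2D and 11 in 3D were within 40 kb, and placed by the start codon 7 and 10. The members had a median distance of 84.0 kb in the 2D list and 60.5 kb in the 3D list, against 53.9 and 58.6 kb for all protein-coding genes. When a border had to have a TAD on both sides, the median of the members was 192 kb in both lists, with no gap between the cultures, beside 199 and 153 kb for all protein-coding genes. By cluster, with every TAD end as a border, the medians were 95.3 and 55.3 kb for HoxA, 58.0 kb for HoxB in both lists, 33.2 and 30.6 kb for HoxC, and 778 kb for HoxD in both.

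**Figure D4:**
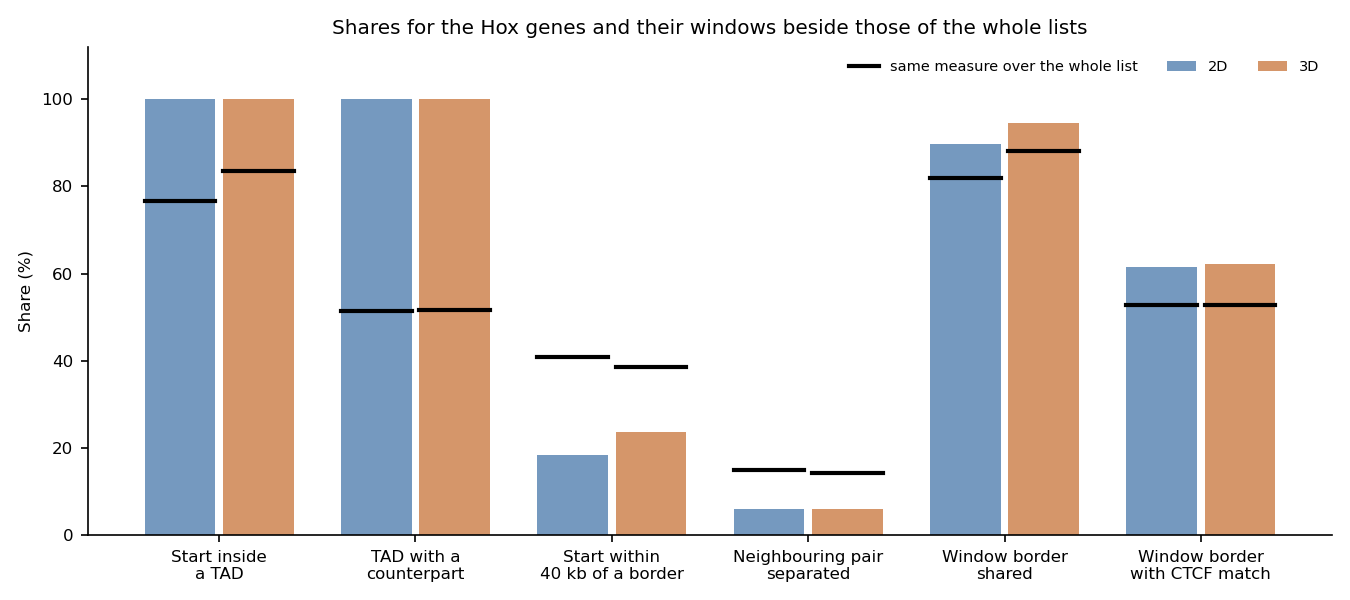
Shares (%) of the 38 members, of their 34 neighbouring pairs, and of the borders within 1 Mb of the clusters, in 2D (blue) and 3D (orange), with black lines for the same measure over all protein-coding genes, pairs or borders of each list. Bars reach 100% for starts inside a TAD and lie below the lines for starts near a border and for separated pairs.

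The windows that reach 1 Mb to either side of the clusters held 39 borders in 2D and 37 in 3D. Of these, 35 in each list (89.7% in 2D, 95% Wilson interval 76.4 to 95.9, and 94.6% in 3D, 82.3 to 98.5) were shared, and 27 had the same position. The intervals cover counting error only, and they include the shares over the whole lists, 81.9% in 2D and 88.1% in 3D. The order of the cultures turned when a border had to have a TAD on both sides. Under that definition 14 of 14 were shared in 2D (100%) and 14 of 24 in 3D (58.3%), beside 74.8% and 68.4% over the whole lists. With every TAD end as a border, in HoxA and HoxB every 2D border was shared, and 8 of 11 and 9 of 11 lay at the same position. The 4 borders of 2D that were not shared comprised 3 in the HoxC window, at 102160000, 103400000 and 103560000, and the one at 75680000 beyond HoxD. In 3D the unshared borders were those at 51480000 before HoxA and at 102080000 before HoxC. None of these lay within a cluster. Between 103400000 and 103560000, beyond HoxC, the 2D list had a TAD without a counterpart, and the 3D list had no TAD from 103320000 to 103720000.

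The windows also differed in how the TADs met. In 2D, 14 of the 39 borders (35.9%) were positions where 2 TADs met, and the rest had a TAD on only 1 side. In 3D, 24 of the 37 (64.9%) were positions where 2 TADs met. In the HoxA window the count was 3 of 11 in 2D and 4 of 12 in 3D, and in the HoxB window 7 of 11 and 11 of 11. The shares over the whole lists were 47.5% in 2D and 56.6% in 3D. TADs covered 85.3% of the HoxB window in 2D and 100% in 3D, 64.0% and 76.0% of the HoxC window, and 96.2% and 100% of the HoxD window. They covered 80.9% of the HoxA window in both lists. The HoxC window ends short of its 1 Mb, since the last TAD of the chromosome ended at 103920000 in both lists.

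**Figure D5:**
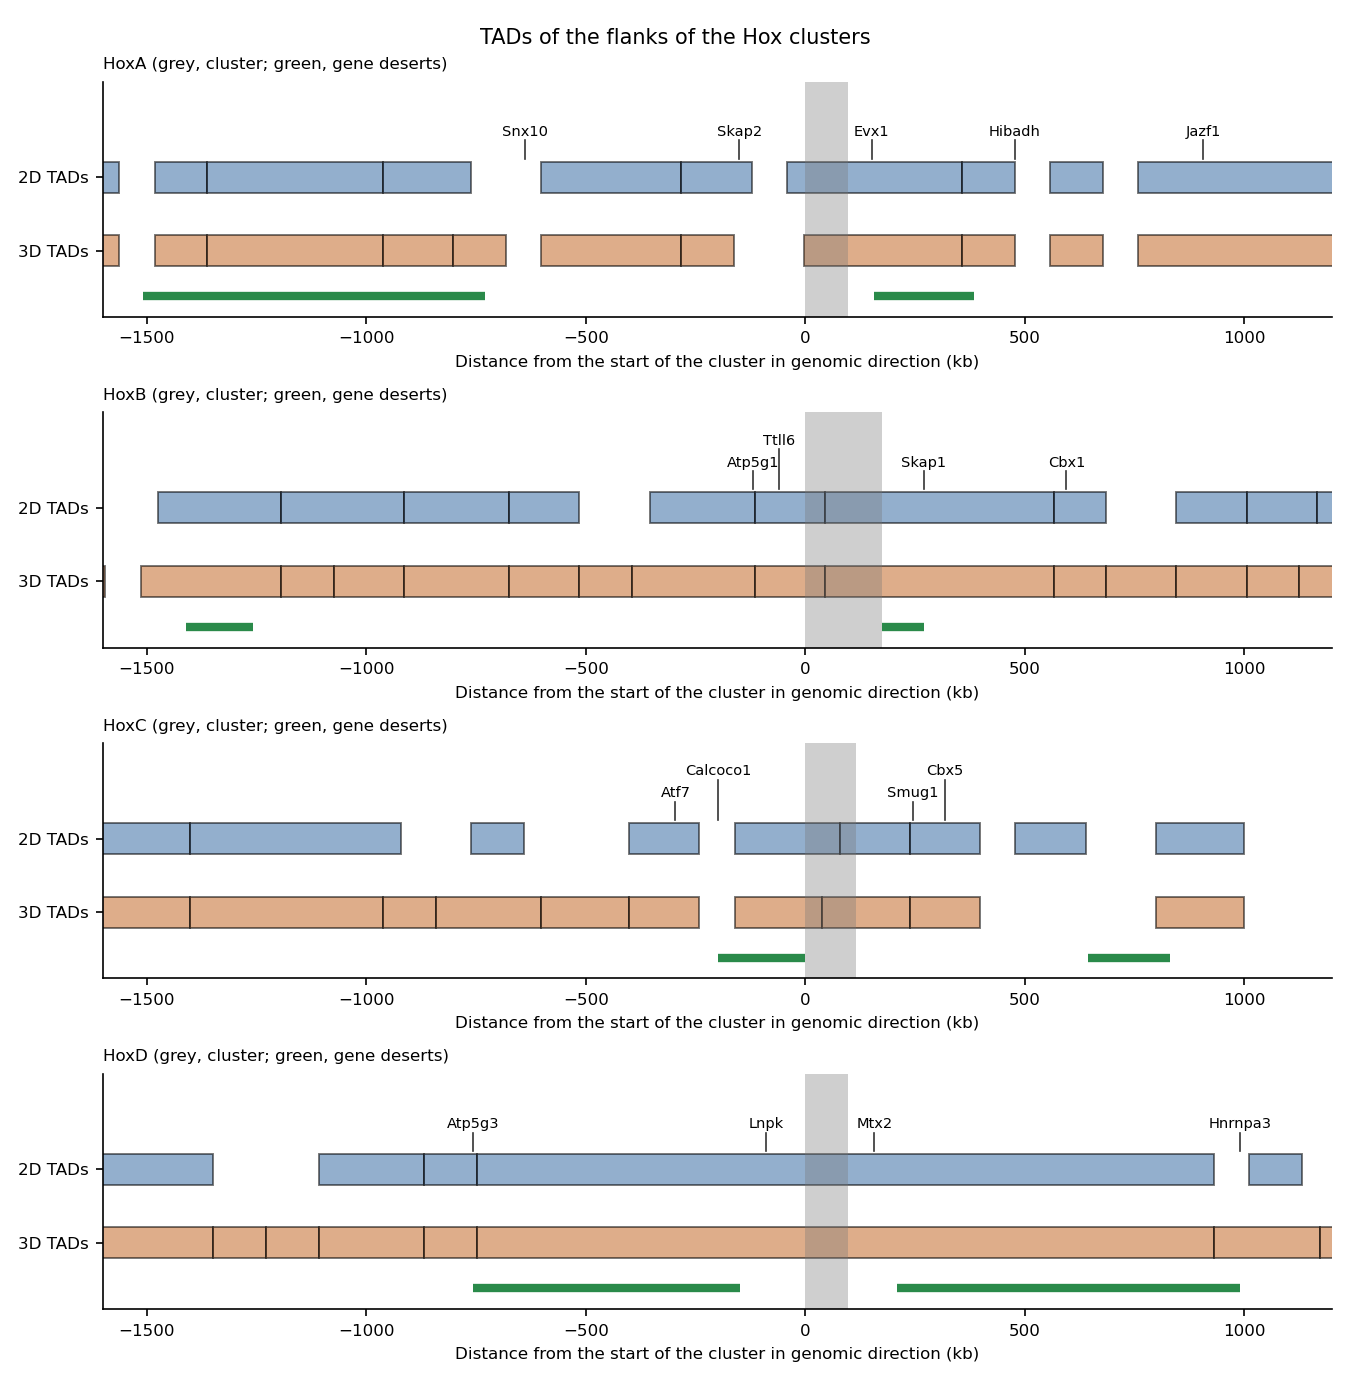
TADs around the 4 clusters in 2D (blue) and 3D (orange), by distance in kb from the start of the cluster, with the cluster in grey, the longest stretch without a protein-coding gene on each side in green, and the starts of some neighbours named. The HoxD TAD covers nearly all of both stretches beside that cluster, and gaps between TADs are more frequent in 2D in the HoxB and HoxC panels.

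On each side of a cluster the longest stretch free of protein-coding gene bodies within 2 Mb was taken as its gene desert. Those beside HoxD were 609.0 kb between Atp5g3 and Lnpk (chr2:73911327-74520290) and 780.8 kb between Mtx2 and Hnrnpa3 (chr2:74878432-75659260). Of all stretches without a protein-coding gene in the genome, 2.84% and 2.08% are longer. Low shares follow in part from taking the longest stretch on each side. The HoxD TAD held 98.6% of the desert before the cluster and 92.4% of the desert after it in both lists. Each desert contained 1 border, the end of that TAD, 8.7 kb inside the outer end of the former and 59.3 kb inside that of the latter. Most of both deserts thus shared a called TAD with the cluster in 2D and in 3D, and contacts inside that TAD were not examined. When stretches had also to be free of lncRNA genes, the longest before HoxD was another one, 216.6 kb between Cdca7 and 8430437L04Rik, outside the HoxD TAD.

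The deserts of the other clusters were arranged differently. The stretch of 227.8 kb between Evx1 and Hibadh on the posterior side of HoxA lay to 88.5% in the TAD of the cluster in both cultures, with 1 border inside it, at 52520000. When stretches were measured between gene starts, the longest on this side was 533.6 kb between Creb5 and Tril, outside the TAD of the cluster. The longest stretch on the anterior side, 778.2 kb between Npvf and Nfe2l3 and 729.7 kb away from the cluster, had none of its length in that TAD and was cut by 4 borders in each list, all of them shared. The 198.9 kb between Calcoco1 and Hoxc13 lay to 81.0% in the TAD of the posterior HoxC genes, and the 186.8 kb between Glycam1 and Mucl1 on the other side lay to 17.1% in any TAD. The 96.3 kb between Hoxb1 and Skap1 lay wholly in the TAD of the 9 HoxB genes, and the 153.5 kb between Tmem92 and Col1a1, 1258.1 kb away, lay in 1 TAD of 280 kb in 2D and of 320 kb in 3D. Over the 8 deserts, 3.03 Mb in all, each list had 9 borders, and all 9 were shared. That is 2.97 borders per Mb, beside 2.36 per Mb over the whole span in 2D and 2.17 in 3D. The density ranged from 0 on both sides of HoxB to 5.35 per Mb beyond HoxC, in a stretch 528.2 kb from the cluster. The distant stretch before HoxA held 4 of the 9 borders. The stretches that overlapped a TAD of members had 1.64 and 1.28 per Mb (HoxD), 4.39 (HoxA), 5.03 (HoxC) and 0 (HoxB). In stretches also free of lncRNA genes, 1.49 Mb in all, each list had 1 border, 0.673 per Mb, which is below the density over the whole span. TADs covered 89.8% of the deserts in 2D and 92.8% in 3D, close to the 89.3% and 92.1% of the whole lists.

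The share of repeats differed between the clusters. In the GRCm38 reference, repeats made up 13.4% of HoxA, 15.9% of HoxC and 14.4% of HoxD, against 34.3% of the chromosomes in the lists, and only 0.920%, 3.22% and 1.61% of all 40 kb bins were as poor in repeats. HoxB held 24.6%, and 27.0% of all bins held as few or fewer. Its share divides into 33.0% between the starts of Hoxb13 and Hoxb9, where the border lay, and 18.0% from Hoxb9 to Hoxb1. The G and C content of the clusters was 48.9 to 50.0%, beside 41.8% in all. The sites of MboI, the enzyme that cut the chromatin, numbered 82.2 to 98.2 per 40 kb in the clusters and 100 on average over the bins. Whether sequence bears on the borders was not tested.

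CTCF is a zinc finger protein that binds at many TAD borders, and its binding motif has a direction. The core CTCF consensus of 12 letters, searched on both strands of the reference, matched 12728 times, or 4.97 times per Mb. At least 1 match lay within 40 kb of 24 of the 39 borders of the windows in 2D (61.5%) and of 23 of the 37 in 3D (62.2%), beside 52.9% of all borders in 2D and 52.9% in 3D. Only 1 match lay inside a cluster, in the gap between Hoxb13 and Hoxb9, 25.9 kb from the border that divides HoxB and 5.6 kb from Hoxb9. Near the other borders of the TADs that held members there were 7 matches. None lay within 40 kb of the borders of the HoxA TAD in either list, of the HoxB border at 96080000, of the HoxC borders at 103000000 and 102960000, or of the HoxD border at 73920000. The absence of a match means only that these letters do not occur there. The 8 matches, shown because they are the ones nearest to the borders that hold or divide the clusters, are printed with 14 bases to either side, 5′ to 3′ on the strand of the match, with the consensus in capitals. None overlaps an annotated gene, and the coordinates are those of GRCm38.

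HoxB, minus strand, chr11:96265861-96265900, between Hoxb13 and Hoxb9: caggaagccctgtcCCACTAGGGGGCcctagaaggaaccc
HoxB, plus strand, chr11:96760187-96760226, 0.2 kb from the border beyond Skap1: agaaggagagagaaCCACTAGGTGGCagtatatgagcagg
HoxC, minus strand, chr15:102742817-102742856, 17.2 kb outside the border before Hoxc13: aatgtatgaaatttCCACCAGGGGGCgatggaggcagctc
HoxC, minus strand, chr15:102753547-102753586, 6.4 kb outside the same border: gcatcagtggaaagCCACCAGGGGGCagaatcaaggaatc
HoxC, plus strand, chr15:102785224-102785263, 25.2 kb inside the same border: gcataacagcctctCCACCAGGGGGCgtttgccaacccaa
HoxC, minus strand, chr15:103178350-103178389, 18.4 kb outside the border after Hoxc4: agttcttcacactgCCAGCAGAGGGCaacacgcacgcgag
HoxD, minus strand, chr2:75590399-75590438, 9.6 kb inside the border after Mtx2: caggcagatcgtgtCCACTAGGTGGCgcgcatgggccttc
HoxD, minus strand, chr2:75636773-75636812, 36.8 kb outside the same border: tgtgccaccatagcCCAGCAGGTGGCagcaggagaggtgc

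The match nearest to any border of a member TAD was that at 0.2 kb from the far border of the HoxB TAD. At the border before Hoxc13 the 2 nearer matches lay on the minus strand and the farther one on the plus strand, and the match beyond the border after Hoxc4 lay on the minus strand. The 2 matches by the far border of the HoxD TAD were both on the minus strand. The desert before HoxA held 11 matches (14.1 per Mb), and the desert after HoxD held 6 (7.68 per Mb). Those before HoxB, HoxC and HoxD held 2, 4 and 2 (13.0, 20.1 and 3.28 per Mb), beside 4.97 per Mb in all. The deserts after HoxA, HoxB and HoxC, of 227.8, 96.3 and 186.8 kb, held none, and in stretches so short few matches could be seen.

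The clusters also carry microRNA genes, short RNAs that silence messenger RNAs through a seed, bases 2 to 8. The mature RNAs (RefSeq, GRCm38.p6) are shown with the seed in capitals. The first 4 are shown because RNAs from different clusters share a seed while their genes lay in different TADs. The last, whose seed none of the others has, is shown because the TAD of its gene differed between the cultures. The opposite arms are not printed.

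miR-10a-5p, HoxB, between the starts of Hoxb5 and Hoxb4: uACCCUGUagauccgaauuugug
miR-10b-5p, HoxD, between the starts of Hoxd4 and Hoxd1: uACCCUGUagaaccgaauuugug
miR-196a-5p, HoxB (Mir196a-1) and HoxC (Mir196a-2): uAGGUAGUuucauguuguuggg
miR-196b-5p, HoxA, between the starts of Hoxa9 and Hoxa10: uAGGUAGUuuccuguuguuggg
miR-615-3p, HoxC, between the starts of Hoxc5 and Hoxc4: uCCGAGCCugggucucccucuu

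Mir10a and Mir10b, which share the seed ACCCUGU, lay 77.2 kb from a border in the HoxB TAD of 520 kb and 806.1 kb from one in the HoxD TAD, at the same distance in both lists. The 3 genes of the seed AGGUAGU had 3 different settings. Mir196a-1 lay in the gap between Hoxb13 and Hoxb9, 25.2 kb inside the border, in the TAD of the 9 anterior members. Mir196b lay with all 10 HoxA members, 110.2 kb from a border in 2D and 70.2 kb in 3D. Mir196a-2, between Hoxc10 and Hoxc9, lay 26.6 kb from the border in 2D on the side of the posterior genes, and 13.3 kb from it in 3D on the side of the anterior genes. Mir615 lay with 3 members in 2D and with 6 in 3D, at 14.9 and 54.9 kb from the border.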

How the data were processed

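TADs of AML12 cells were taken from the deposited lists, 1 per culture, whose values are the mm10 positions, in base pairs, where each domain begins and ends. Per the paper's methods, the authors mapped the in situ Hi-C reads to mm10 with Bowtie 2 (version 2.2.9), combined 2 replicates per culture, corrected 40 kb matrices by ICE, scaled each chromosome to equal depth and ran Armatus (version 1.0, gamma 0.8). A 1-bin move of a border may therefore arise anywhere in these steps, and read depth per TAD is not given.

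Genes were placed by GENCODE release M21 on GRCm38, the assembly of mm10, at the start of the principal transcript, with the 5′ end of the record and the start codon as alternatives. Named genes were the members, a fixed list of neighbours, non-coding and microRNA genes (2 names were not found), and the genes that bound deserts. Members and lists were chosen with earlier results of these data known. One gene is not reported here. Coordinates are 1-based, and a TAD starts 1 base after its border. The scripts used numpy (2.4.6), scipy (1.17.1) and pysam (0.24.0) under Python 3.11.15, and 5 of 5 measures were recovered on simulated lists. No test was run, since each culture has 1 list. Shares of borders carry 95% Wilson intervals, and alternatives changed 1 choice at a time. The contact matrices and expression data were not analysed here.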

Additional observations from a re-analysis of the deposited data

How the results depend on the processing

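No paired analysis was possible because each list was called on the pooled replicates, and for the same reason no replicate could be left out. Over 19 alternative settings, 49 of 72 values stayed within 1.5 times (counts), the order-statistic interval (medians) or the 95% Wilson interval (shares) of the value given. Every count of members inside a TAD and of separated pairs stayed within that limit, although placing genes by their record moved the 2D border of HoxC to another pair. TADs with identical ends were found for 19 members. Within 20 kb of a border lay 3 members in 2D and 4 in 3D, and within 80 kb 18 and 24. The share of all protein-coding genes is given at 40 kb only, so these counts cannot be set against it. With only positions where 2 TADs meet as borders, the median distance was 192 kb in both lists, and 100% of the 2D and 58.3% of the 3D window borders were shared. Shared borders were 69.2% and 73.0% at the same position, 97.4% and 100% within 80 kb, and 100% in 3D with a flank of 500 kb. Deserts also free of lncRNA genes lay to 100% in TADs and held 1 border in 1.49 Mb in each list, so that their border density fell below that of the whole lists. With 1 mismatch allowed, 100% of window borders had a consensus match, so that the share then separates nothing, and within 20 kb 41.0% (2D) and 45.9% (3D) had one. For the changes under these alternatives the cause was not tested, beyond what the narrower or wider definitions impose by construction.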
